A study of Mus musculus with 8 samples.

Results

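The epithelial sodium channel (ENaC) and the aldosterone response were followed through 8 genes: the channel subunits Scnn1a, Scnn1b and Scnn1g, the mineralocorticoid receptor Nr3c2, its gatekeeper enzyme Hsd11b2, the kinase Sgk1, the ubiquitin ligase Nedd4l and the potassium channel Kcnma1. They were taken by name after the Ensembl identifiers of the count files had been matched to symbols of GENCODE vM21. The 8 genes are 8 of 46517 identifiers listed, and all 8 held enough reads to be tested. Poly(A) RNA of whole kidneys was sequenced, 1 library per mouse, from 4 Control and 4 conditional knockout (cKO) animals. The cKO mice were Xpr1lox/lox-Pax8-rtTA/LC-1: both Xpr1 copies were floxed at exon 2, and doxycycline switched on Cre through rtTA made from the Pax8 promoter, which is active along the renal tubule, the collecting duct included. Control mice were Xpr1lox/lox littermates, and doxycycline (2 mg/ml for 2 weeks, begun at 8 weeks of age) went to both groups, as did the standard chow. The labels name no transgene in Control mice, so effects of Cre and rtTA and of the loss of Xpr1 cannot be told apart. The study asked what loss of XPR1, a phosphate exporter and retrovirus receptor, does to the nephron.

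In the last part of the nephron and in the collecting duct, principal cells take up sodium through ENaC at their luminal face, in exchange for potassium. Aldosterone binds the mineralocorticoid receptor, which raises transcription of the channel's alpha subunit and of SGK1. SGK1 phosphorylates NEDD4-2 (the product of Nedd4l), which then removes fewer channels from the membrane. HSD11B2 inactivates glucocorticoids, which would otherwise occupy the same receptor, and the BK channel (its pore is encoded by Kcnma1) secretes potassium when tubular flow is high.

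The receptor binds DNA at a palindrome built of the repeat AGAACA, and for that reason the sequence before a start of Sgk1, a classic target, is shown. The letters AGAACA and the palindrome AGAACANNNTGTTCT, which contains AGAACA on both strands, were searched on both strands of RefSeq promoter windows (GRCm38.p6, 300 bases each, from 250 before to 50 after a start). The table held 10 windows for 5 of the 8 genes, 6 of them for alternative starts of Sgk1. Of these 5 genes, Sgk1 was the only gene with a match to either motif. The palindrome occurred in 1 Sgk1 window, beginning 189 bases before the start at position -189. Of 32851 windows of all genes 3 held it (0.00913%), and 19% held AGAACA. The 250 bases before that start (plus strand, chr10:21993640-21993889) are printed 5′ to 3′ with the palindrome in capitals.
Sgk1: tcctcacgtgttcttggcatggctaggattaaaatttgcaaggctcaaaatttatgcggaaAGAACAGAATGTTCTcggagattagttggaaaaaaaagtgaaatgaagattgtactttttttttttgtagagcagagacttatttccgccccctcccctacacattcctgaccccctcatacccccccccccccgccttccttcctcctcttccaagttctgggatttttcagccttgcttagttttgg
A match of letters is a description of this stretch and not a measured binding site.

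Reads assigned to genes ran from 20366113 to 26155030 per library. Xpr1 lay at 80.2 to 126 CPM (reads in relation to library size, scaled with TMM factors) in Control and at 5.74 to 26.5 CPM in cKO kidneys, so each library followed its label, although counts per gene do not show the floxed exon by itself. Libraries differed in how far they leaned to long or short transcripts, measured as the slope of a library's log2 deviation from the Control mean per doubling of exonic length over the tested genes. That slope was 0.22 in Control 11 and between -0.15 and -0.026 in the other 3 Control libraries, and it was -0.53 in cKO 16, -0.26 in cKO 20, 0.11 in cKO 19 and 0.17 in cKO 18. Control 11 had the highest slope and cKO 16 and cKO 20 the lowest, although cKO 18 and cKO 19 also lay above the other Control libraries. The 8 genes are given with and without those 3 libraries, and pathway genes where it changed a call. Of 15382 genes tested over all 8 libraries, 2170 (14.1%) passed an adjusted p of 0.05 in edgeR's quasi-likelihood test, 7.5% higher and 6.61% lower in cKO.

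None of the 8 genes passed that test: 0 of 8 were called against 14.1% of all genes. One gene, Kcnma1, was below an unadjusted p of 0.05, and it was also the 1 gene called by DESeq2, while limma-voom called 0. Ranked by p, Kcnma1 came 2672 among 15382 tested genes, so more than 14.1% of them lay below that unadjusted threshold. The median log2 fold change of the 8 genes was -0.22, and that of all tested genes was 0.0066. Kcnma1 had the largest difference of the 8 and was the only one whose groups did not overlap, which 22.8% of all tested genes also showed. For the channel subunits, the receptor, the enzyme, the kinase and the ligase, the spread between mice within a group exceeded the difference between the groups. In bulk kidney, fewer cells of a type and less RNA per cell cannot be told apart.

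**Figure D1:**
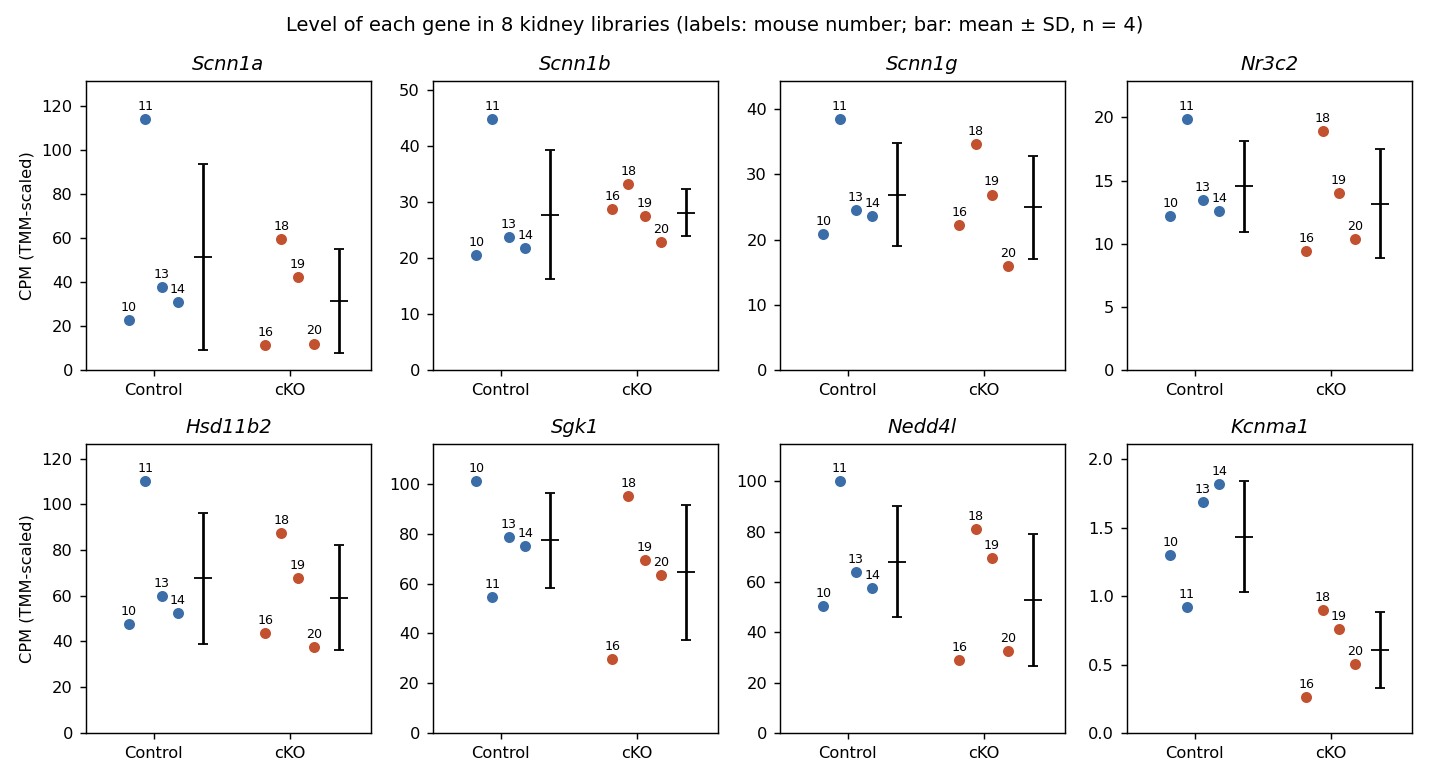
Level of each of the 8 genes in CPM (linear axis from 0) in Control and cKO kidneys, 1 point per mouse with its number, and mean ± SD (n = 4) beside the points. Scnn1a, Scnn1b, Scnn1g, Nr3c2, Hsd11b2 and Nedd4l peak in Control 11 and then cKO 18, while Kcnma1 is the gene with all cKO points below all Control points.

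Scnn1a encodes the alpha subunit, without which the channel carries little current (chromosome 6, 125320659 to 125344943, plus strand, GRCm38). Its level was 22.9, 114, 37.5 and 31.1 CPM in Control 10, 11, 13 and 14, and 11.6, 59.6, 42.1 and 12.1 CPM in cKO 16, 18, 19 and 20. Control 11 was far above the other Control kidneys, cKO 16 and cKO 20 lay below every Control kidney, and cKO 18 and cKO 19 lay inside the Control range. The mean was 51.5 ± 42.3 CPM in Control and 31.3 ± 23.6 CPM in cKO (SD, n = 4 each), with a log2 fold change of -0.71 (SE 0.66, 95% interval -2.2 to 0.78, edgeR adjusted p = 0.547). This was the widest interval of the 8 genes. Without Control 11 the value was 0.036 (adjusted p = 0.979), and without cKO 16 and cKO 20 it was -0.023 (adjusted p = 0.984), so the lower cKO mean was not seen without either.

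Scnn1b and Scnn1g encode the beta and gamma subunits and are neighbours on the plus strand of chromosome 7, Scnn1g at 121734479 to 121768475 and Scnn1b at 121865038 to 121918514, with 96562 bases between them. Scnn1b was at 20.6, 44.8, 23.7 and 21.7 CPM in the Control kidneys and at 28.7, 33.2, 27.5 and 22.9 CPM in the cKO kidneys, in the same order of mice. All 4 cKO values lay within the Control range, which Control 11 alone stretched upward. The group means were 27.7 ± 11.5 and 28.1 ± 4.24 CPM, a log2 fold change of 0.019 (SE 0.29, interval -0.63 to 0.67, edgeR adjusted p = 0.977). Scnn1g was at 20.9, 38.5, 24.6 and 23.6 CPM in Control and at 22.3, 34.6, 26.9 and 15.9 CPM in cKO. Its groups overlapped, with the highest value in Control 11 and the lowest in cKO 20. The log2 fold change was -0.11 (SE 0.3, interval -0.77 to 0.55, edgeR adjusted p = 0.857). On the linear scale these intervals ran from 0.646 to 1.59 times Control for Scnn1b and from 0.585 to 1.47 times for Scnn1g, and smaller changes were not detectable at this spread.

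The channel is a heteromer, so the balance of its subunits was compared within each library, per kilobase of exon. The log2 ratio of Scnn1a to Scnn1b was -0.5, 0.7, 0.013 and -0.13 in Control 10, 11, 13 and 14, and -1.95, 0.19, -0.034 and -1.57 in cKO 16, 18, 19 and 20. Scnn1a was thus well below Scnn1b in cKO 16 and cKO 20 and near it in cKO 18 and cKO 19. The difference of the means was -0.86 (exact two-sided permutation test over 70 splits, p = 0.257, adjusted over 3 ratios 0.286), and it became 0.058 without cKO 16 and cKO 20. For Scnn1a to Scnn1g the difference was -0.65 (exact permutation p = 0.286, adjusted 0.286). For Scnn1b to Scnn1g it was 0.21 (exact permutation p = 0.229, adjusted 0.286), with the highest ratios, 0.7 and 0.55, again in cKO 20 and cKO 16. None of the 3 ratios differed beyond the spread between mice, and the smallest p this design allows is 0.0286.

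Nr3c2, the mineralocorticoid receptor (chromosome 8, 76899442 to 77245012, plus strand), was at 12.2, 19.9, 13.5 and 12.6 CPM in Control 10, 11, 13 and 14 and at 9.46, 18.9, 14 and 10.4 CPM in cKO 16, 18, 19 and 20. The groups overlapped, with cKO 18 close to the highest Control kidney and cKO 16 and cKO 20 below all Control kidneys. Its log2 fold change was -0.14 (SE 0.28, interval -0.78 to 0.5, edgeR adjusted p = 0.804). Hsd11b2, the enzyme that protects the receptor from glucocorticoids (chromosome 8, 105518755 to 105523988, plus strand), was at 47.7, 110, 59.9 and 52.6 CPM in Control and 43.9, 87.6, 67.8 and 37.5 CPM in cKO kidneys. It showed the same layout, with overlap and with Control 11 and cKO 18 on top. The log2 fold change was -0.19 (SE 0.36, interval -0.99 to 0.61, edgeR adjusted p = 0.793). Exons of Nr3c2 share 247 bases with Gm10649 on the opposite strand, which had 20 reads over all libraries.

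Sgk1, the kinase induced by aldosterone and by many other stimuli (chromosome 10, 21882184 to 21999903, plus strand), did not follow the channel in Control kidneys. It was at 101, 54.6, 78.7 and 74.9 CPM in Control 10, 11, 13 and 14, so that Control 11, the highest Control kidney for 6 of the other genes, was the lowest here. In cKO 16, 18, 19 and 20 it was at 29.5, 95.3, 69.5 and 63.6 CPM, with cKO 16 below every other kidney. Ordered by CPM, the cKO kidneys ran as they did for Scnn1a. The group means, 77.4 ± 19.1 and 64.5 ± 27.1 CPM, gave a log2 fold change of -0.26 (SE 0.35, interval -1.04 to 0.52, edgeR adjusted p = 0.685). Without cKO 16 the value was -0.021. The start with the palindrome printed above belongs to this gene, but counts per gene do not separate its 6 starts.

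Nedd4l, the ligase that tags ENaC for removal (chromosome 18, 64887705 to 65217828, plus strand), was at 50.5, 100, 64.1 and 57.5 CPM in Control and at 28.9, 81, 69.5 and 32.5 CPM in cKO kidneys. As for Scnn1a, cKO 16 and cKO 20 were the lowest kidneys and Control 11 the highest, and cKO 18 and cKO 19 lay within the Control range. The log2 fold change was -0.36 (SE 0.38, interval -1.22 to 0.5, edgeR adjusted p = 0.603). Its exons share 277 bases with A330084C13Rik on the opposite strand.

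Kcnma1, the pore subunit of the BK potassium channel (chromosome 14, 23289431 to 24014491, minus strand), was scarce in whole kidney. It was at 1.3, 0.922, 1.69 and 1.82 CPM in Control 10, 11, 13 and 14, from 27, 23, 39 and 41 reads. In cKO 16, 18, 19 and 20 it was at 0.266, 0.896, 0.757 and 0.506 CPM, from 5, 28, 25 and 12 reads. All 4 cKO kidneys were below all 4 Control kidneys, but Control 11 and cKO 18 nearly met. The means were 1.43 ± 0.406 and 0.606 ± 0.279 CPM (SD, n = 4 each), or 0.435 times Control (interval 0.234 to 0.806). The log2 fold change was -1.2 (SE 0.4, unadjusted p = 0.0136), and with edgeR's adjusted p = 0.078 it did not pass. DESeq2 gave -1.23 with an adjusted p of 0.0309, in a fit that called 16.9% of its genes. Over the other fits of this gene the adjusted p ran from 0.0111 to 0.232. Exons of Kcnma1 share 1016 bases with 4930519K11Rik on the opposite strand, and the strand setting of the counting is not given in the sources used here.

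The lean of the libraries moved with these levels. Ordered by CPM, the Control kidneys ran 11, 13, 14, 10 for 6 of the 8 genes (all but Sgk1 and Kcnma1), which is also their order by length slope. Within the cKO group 5 of the 8 genes (Scnn1a, Nr3c2, Sgk1, Nedd4l and Kcnma1) ran 18, 19, 20, 16, again the order by slope. The highest kidney exceeded the lowest of its own group 4.98 times in Control and 5.14 times in cKO for Scnn1a. For the other 7 genes that ratio ran from 1.45 (Scnn1b in cKO) to 3.37 (Kcnma1 in cKO). Xpr1 itself kept the slope order in both groups. The genes in slope order in Control included Hsd11b2 (1840 exonic bases, the shortest of the 8) and Nedd4l (17659), while Kcnma1 (16976) was not in that order. Whether the length of a gene sets its place here was not tested.

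**Figure D2:**
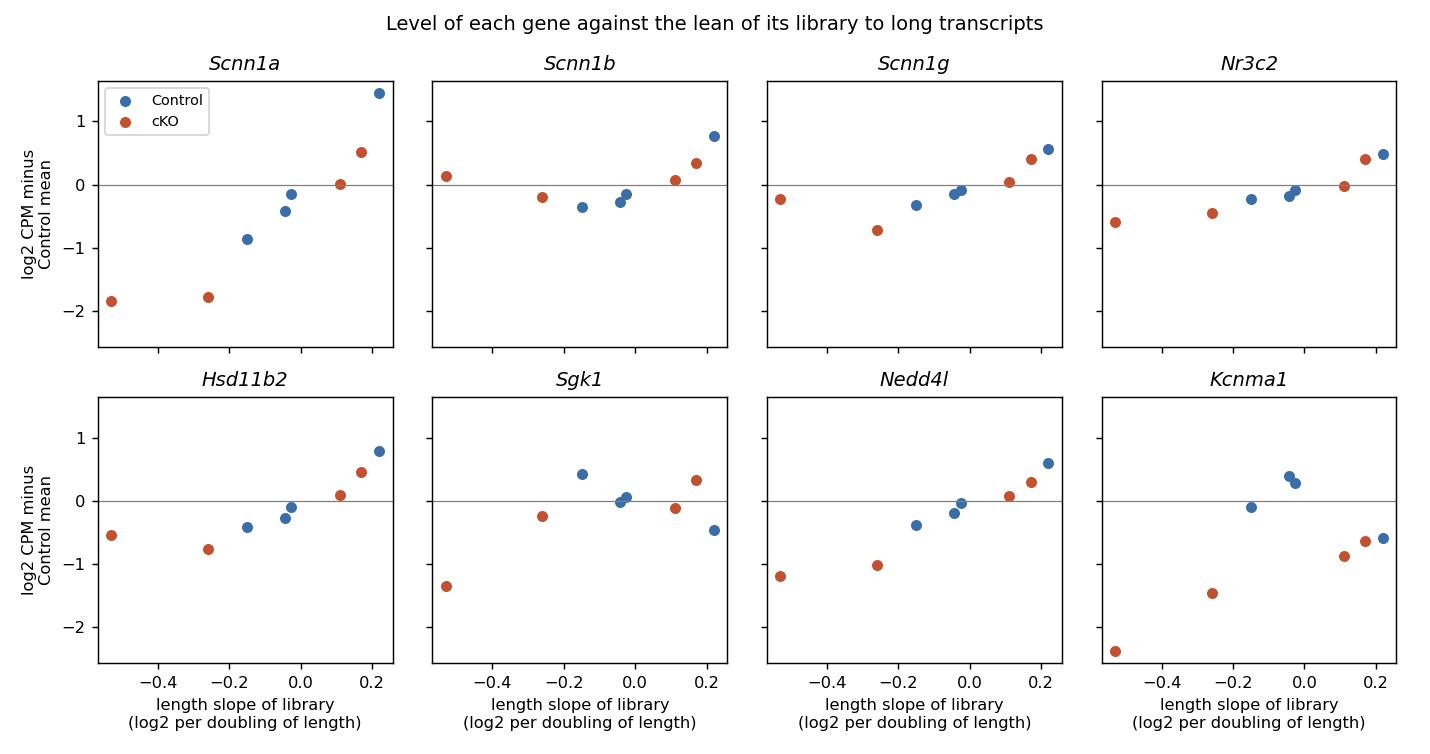
Log2 CPM of each gene minus its Control mean (vertical axis) against the length slope of the library (horizontal axis, log2 per doubling of exonic length), 1 point per kidney, blue for Control and red for cKO. Scnn1a, Nr3c2 and Nedd4l climb from left to right over both groups, Sgk1 does not, and for Kcnma1 the cKO points lie below the Control points.

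With the length slope as a covariate the 7 genes that had been below 0 all moved toward it, and Scnn1g (0.046), Nr3c2 (0.017) and Hsd11b2 (0.045) turned to the other sign without passing. Kcnma1 kept its size, -1.13, and passed (edgeR adjusted p = 0.0306), in a fit that called 33.2% of all genes. The slope came from the same counts, over tested genes that include those called between the groups. It is thus not independent of genotype, and this fit cannot separate lean from genotype. When Control 11, cKO 16 and cKO 20 were left out, 5 genes were higher in cKO and Kcnma1 was lower. Scnn1a then had a log2 fold change of 0.7 (edgeR adjusted p = 0.0144), Hsd11b2 0.5 (0.0119), Scnn1b 0.42 (0.0156), Scnn1g 0.37 (0.0391), Nedd4l 0.35 (0.0384) and Kcnma1 -1 (0.0111). Nr3c2 (0.32, adjusted p = 0.0871) and Sgk1 (-0.081, adjusted p = 0.69) did not pass. These 6 of 8 calls stand beside 57.8% of all genes called in the same 5 libraries. For Scnn1a, Scnn1g, Nr3c2, Hsd11b2 and Nedd4l the libraries left out were the highest Control kidney and the 2 lowest cKO kidneys. Leaving them out raised those differences and narrowed the spread by construction, so these higher values are not read as a result. The slopes of the 2 cKO libraries kept, 0.11 and 0.17, also lay above those of the 3 Control libraries kept, so genotype and lean cannot be told apart among those 5.

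**Figure D3:**
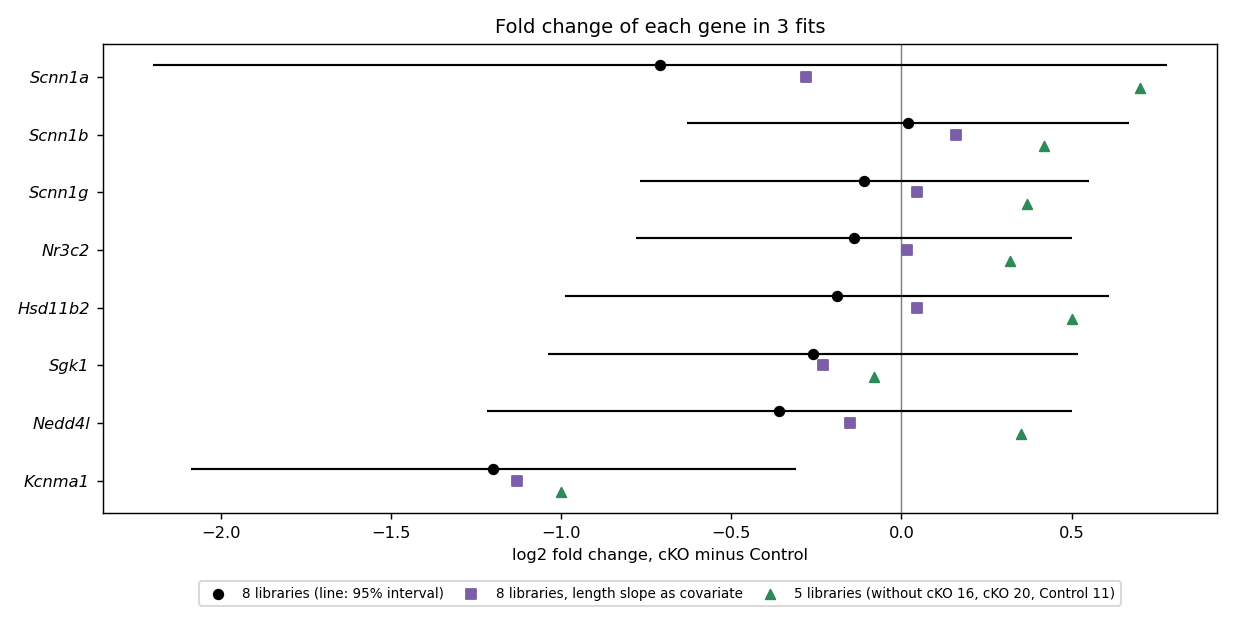
Log2 fold change of each gene, cKO minus Control: black points with 95% intervals for the fit of 8 libraries, squares with the length slope as covariate, triangles for 5 libraries without Control 11, cKO 16 and cKO 20. The triangles of the 3 subunits, Nr3c2, Hsd11b2 and Nedd4l are right of 0, while Kcnma1 lies between -1.2 and -1 in all 3 fits.

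Per kilobase of exon, Hsd11b2 was the most abundant of the 8 in Control kidneys at 36.7 ± 15.5 CPM per kb, followed by Sgk1 at 15.8 ± 3.9, Scnn1a at 12.5 ± 10.2, Scnn1b at 10.5 ± 4.37 and Scnn1g at 9 ± 2.63. Nedd4l (3.85 ± 1.25), Nr3c2 (2.25 ± 0.552) and Kcnma1 (0.0845 ± 0.0239) came last on the same scale. In cKO kidneys the order was Hsd11b2 (32.2 ± 12.5), Sgk1 (13.2 ± 5.53), Scnn1b (10.7 ± 1.61), Scnn1g (8.33 ± 2.62), Scnn1a (7.59 ± 5.72), Nedd4l (3 ± 1.48), Nr3c2 (2.04 ± 0.664) and Kcnma1 (0.0357 ± 0.0164). By the ranges over 4 kidneys, Sgk1 and the 3 subunits overlapped their neighbours in this order in both groups, and so did Nedd4l and Nr3c2. Hsd11b2 at the top did not overlap Sgk1, the next gene, in either group, although Scnn1a in Control 11 (27.7 CPM per kb) was above Hsd11b2 in Control 10 (25.9). Kcnma1 at the bottom overlapped no other gene. Scnn1a, the most variable subunit, reached down into the range of Nedd4l in both groups. Exonic length here joins all annotated exons (17659 bases for Nedd4l and 16976 for Kcnma1), which lowers the values of genes with many isoforms.

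Because ENaC acts in principal cells, each gene was also set against 5 principal cell markers (Aqp2, Aqp3, Aqp4, Avpr2 and Fxyd4) in the same library. Kcnma1 is also expressed in other cells, smooth muscle among them, so the comparison is less specific for it. The markers were not all steady: Aqp2 was called higher (1.1) and Aqp3 lower (-1.03) in cKO. Fxyd4 is also among the corticosteroid-induced transcripts counted below. Relative to the mean log2 CPM of the markers, Kcnma1 was at -5.34, -5.5, -4.82 and -4.87 in Control 10, 11, 13 and 14 and at -7.38, -5.73, -5.76 and -6.8 in cKO 16, 18, 19 and 20. The groups did not overlap, and the difference was -1.29 (exact two-sided permutation p = 0.0286, the smallest possible, adjusted over 8 genes 0.229). A single gene could not reach a lower adjusted p in this test, so its failure to pass was fixed in advance. The Kcnma1 difference was -0.62 without cKO 16 and cKO 20. The other 7 genes had differences from -0.86 (Scnn1a) to -0.0025 (Scnn1b), with adjusted exact permutation p from 0.751 to 0.971. Without cKO 16 and cKO 20 all 7 were above 0, from 0.19 (Sgk1) to 0.36 (Hsd11b2). On this scale cKO 16 and cKO 20 were the lowest cKO kidneys for all 7, so leaving them out raised the differences by construction.

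How the 8 genes varied together over the 8 kidneys is given as a description, since all share the libraries and their lean. Pearson's r of log2 CPM was 0.984 for Scnn1a and Nedd4l, 0.974 for Scnn1g and Hsd11b2, 0.966 for Scnn1a and Nr3c2, and 0.96 for Nr3c2 and Hsd11b2 (n = 8 libraries). Scnn1b was looser, at 0.679 with Scnn1a and 0.551 with Nedd4l. Sgk1 and Kcnma1 had 0.762 with each other, and with the other genes from -0.325 (Sgk1 with Scnn1b) to 0.59 (Kcnma1 with Nedd4l). Each gene was also compared with other tested genes with a mean of at least 1 CPM. Pseudogenes, unmatched identifiers and genes with clone or accession names were left out. Among the genes kept, the nearest in pattern to Scnn1a were Inpp5j (0.998), Lmtk2 (0.997) and Cdan1 (0.996). For Scnn1b they were Itga7 (0.991), Cdh1 (0.989) and Lamb1 (0.988). For Scnn1g they were Cltc (0.981), Itgal (0.978) and Cdh4 (0.978), for Nr3c2 Kcnj16 (0.99), Casc3 (0.986) and Ranbp9 (0.981), and for Hsd11b2 Phrf1 (0.993), Slc13a5 (0.988) and Cand1 (0.988). Nedd4l was nearest to Pde4dip (0.998), Nacc1 (0.997) and Prrc2c (0.997). Sgk1 was nearest to Fgfr1op (0.981), Ipcef1 (0.965) and Rabggtb (0.965), and Kcnma1 to Dcun1d3 (0.987), Alkbh1 (0.987) and Mkln1 (0.986). None of these 24 genes passed the test of cKO against Control, beside 14.1% of all tested genes. They were picked for likeness, over the same libraries, to genes that did not pass, so this outcome is no separate result.

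Around the 8 genes, 4 of 5 pathway lists held called genes, which are given beside the 14.1% of all tested genes that were called. Among 10 tested proteases and inhibitors that set how far ENaC is cleaved and opened, 3 rose, 0 fell and 7 did not pass, with a median log2 fold change of 0.38. Serpine2, which encodes protease nexin-1, an inhibitor of serine proteases that include the channel activator prostasin, was at 14.8 to 20.1 CPM in Control and at 43.4 to 113 CPM in cKO kidneys (2.05, SE 0.33, edgeR adjusted p = 0.00397). St14, which encodes the membrane protease matriptase, was at 29.9 to 56.7 CPM in Control and at 70.1 to 99 CPM in cKO (1.11, SE 0.25, adjusted p = 0.0185). Plat, tissue plasminogen activator, was at 35.8 to 59.4 CPM in Control and at 67.9 to 247 CPM in cKO, with the top value in cKO 16 (1.54, SE 0.42, adjusted p = 0.0391). The call was lost without Control 10, 13 or 14 or cKO 19 for St14 (adjusted p 0.0501 to 0.0789), and without Control 10, 13 or 14 or cKO 20 for Plat (0.084 to 0.12). Plat was at 0.72 (adjusted p = 0.0776) without cKO 16 and cKO 20 and at 1.36 (adjusted p = 0.053) with limma-voom. Spint2, an inhibitor of these membrane proteases, was at 125 to 183 CPM in Control and 187 to 556 CPM in cKO (1.06, adjusted p = 0.0767). It passed with DESeq2 (0.041), library totals alone (0.00972), the covariate (0.68, 0.00126) and without cKO 18 (1.25, 0.0369), but was at 0.37 (0.215) without cKO 16 and cKO 20.

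The next list held 16 tested kinases, ubiquitin ligases, deubiquitinases and partner proteins linked to ENaC, SGK1 or the sodium chloride cotransporter. Of these 0 rose, 1 fell and 15 did not pass, with a median of -0.26. Sgk2, a relative of SGK1, was at 137 to 219 CPM in Control and 75.2 to 104 CPM in cKO kidneys (-0.96, SE 0.22, edgeR adjusted p = 0.021). The call was lost without Control 13 (adjusted p = 0.071), Control 14 (0.053), cKO 20 (0.0748) or both cKO 16 and cKO 20 (-0.78, 0.0532), and with scaling by library totals alone (-0.61, 0.162). Stk39, which encodes the kinase SPAK that activates the sodium chloride cotransporter, was at 33.9 to 38.8 CPM in Control and 47 to 68.5 CPM in cKO (0.61, adjusted p = 0.07). It passed with DESeq2 (0.0253), upper-quartile factors (0.0399), library totals alone (0.00984), the covariate (0.00926) and without Control 11, cKO 16 and cKO 20 (0.32, 0.0226).

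Of 13 tested partners of steroid receptors and steroid metabolism, 0 passed edgeR's adjusted test. At an unadjusted p of 0.05 3 would have, and DESeq2 and limma-voom called 0. The share of all tested genes below that unadjusted p was not counted and exceeds 14.1%, so the 3 are not read as a result. The median was -0.52. With the length slope as a covariate 4 were lower in cKO, in a fit that called 33.2% of all genes. Without cKO 16 and cKO 20 2 were lower, in a fit that called 2645 genes. Hsd11b1, which reactivates glucocorticoids, was at 188 to 429 CPM in Control and 127 to 249 CPM in cKO (-0.98, adjusted p = 0.085). Control 11 was the lowest Control kidney for it, and without that library the value was -1.2 (adjusted p = 0.0292). It also passed without cKO 16 (-1.18, 0.042) and without both cKO 16 and cKO 20 (-1.43, 0.0362). Fkbp5, a chaperone partner that glucocorticoids induce, was at 48.7 to 84.9 and 22.1 to 54.4 CPM (-0.89, adjusted p = 0.114). It passed with the covariate (-0.71, 0.00659) and without cKO 18 (-1.2, 0.0323).

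Among 16 transcripts known to be induced by corticosteroids, 1 rose, 2 fell and 13 did not pass, with a median of -0.11. Edn1, the precursor of endothelin-1, which inhibits sodium uptake in the collecting duct, was at 0.826 to 2.09 CPM in Control and 4.84 to 9.03 CPM in cKO (2.24, SE 0.37, edgeR adjusted p = 0.00484). Errfi1, a feedback inhibitor of the EGF receptor, fell to 71.7 to 167 CPM from 490 to 739 CPM (-2.32, SE 0.3, adjusted p = 0.00167). Ndrg2 fell to 59.1 to 80.3 CPM from 99.1 to 121 CPM (-0.74, SE 0.19, adjusted p = 0.029), and its call was lost on leaving out any of Control 10, 13 and 14 and cKO 18, 19 and 20 (adjusted p 0.066 to 0.14). It was also lost with RLE factors (0.051), upper-quartile factors (0.0858), library totals alone (-0.43, 0.0969) and no filter (0.0535). Klf9, a transcription factor induced through the glucocorticoid receptor, was at 133 to 171 CPM in Control and 19.4 to 107 CPM in cKO (-1.18, adjusted p = 0.104). Without cKO 16 Klf9 was at -0.88 and passed (adjusted p = 0.0279), as it did without cKO 18 (-1.53, 0.0451). Further calls of Klf9 came with DESeq2 (-1.22, 0.0309), the covariate (-1.11, 0.019) and without Control 11, cKO 16 and cKO 20 (-0.83, 0.00229).

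The companions of Kcnma1 and other potassium channels of the distal nephron formed the last list. Of 8 tested, 2 rose, 0 fell and 6 did not pass, with a median of 0.092. Lrrc26, an auxiliary subunit that lets the BK channel open at lower voltage, was at 0.0802 to 0.266 CPM in Control and 0.464 to 1.17 CPM in cKO (2.14, SE 0.5, edgeR adjusted p = 0.0213). It rested on 14 Control and 72 cKO reads, and its call was lost without Control 10, 11 or 13 (adjusted p 0.0522 to 0.0793). Lrrc26 met the filter on read counts through the cKO libraries alone. Its place among the tested genes thus depended on the group where it was high, and its rise is given as a description. Kcnk1, a potassium channel of the TWIK family, was at 30.4 to 55.5 CPM in Control and 91.3 to 242 CPM in cKO (1.8, SE 0.35, adjusted p = 0.00902). Without cKO 16 and cKO 20 Kcnk1 was at 1.18 (adjusted p = 0.0176). Kcnj1, the ROMK channel that secretes potassium at rest, had means of 197 ± 16.1 and 195 ± 52.9 CPM (log2 fold change -0.013, adjusted p = 0.981), and the BK beta subunit Kcnmb1 had 1.43 ± 0.251 and 1.96 ± 0.329 CPM (0.45, adjusted p = 0.295). Kcnj1 and Kcnmb1 were singled out after their values were seen.

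**Figure D4:**
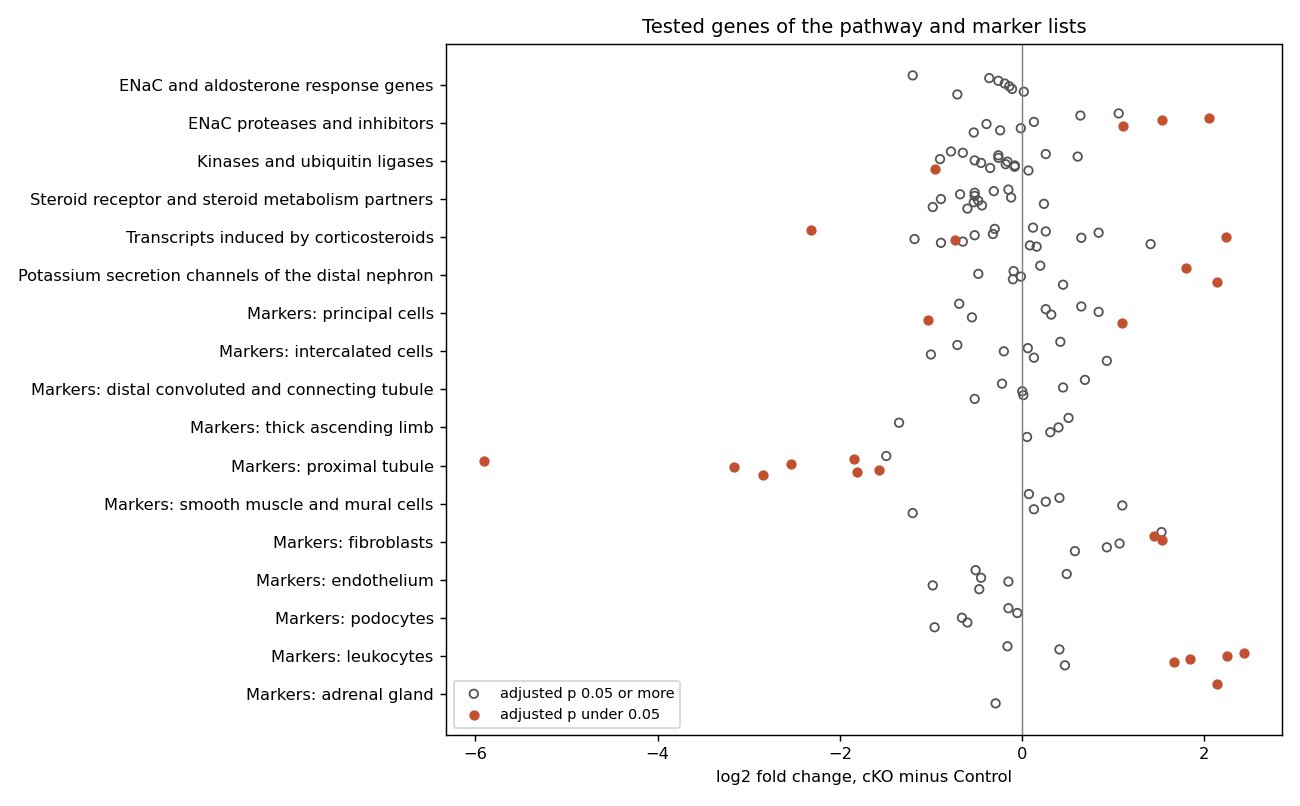
Log2 fold change, cKO minus Control, of every tested gene of the 8 genes, the pathway lists and the cell type marker lists, 1 point per gene, filled where the edgeR adjusted p was under 0.05. No point of the 8 genes is filled, proximal tubule markers lie left of 0, and the filled leukocyte and fibroblast markers lie right of 0.

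Markers placed these values in their tissue. The 8 principal cell markers were present in every library, with summed levels of 460 to 618 CPM in Control and 511 to 631 CPM in cKO. One rose (Aqp2, 1.1, edgeR adjusted p = 0.0117), 1 fell (Aqp3, -1.03, adjusted p = 0.0231) and 6 did not pass. The Aqp2 call was lost without Control 13 (adjusted p = 0.0527), and the Aqp3 call without Control 13 or 14 or cKO 19 or 20 (0.053 to 0.0901), without both cKO 16 and cKO 20 (-1.03, 0.0633) and with library totals alone (-0.72, 0.11). Among markers of intercalated cells (7), distal convoluted and connecting tubule (6) and thick ascending limb (5) edgeR and DESeq2 called 0. At an unadjusted p under 0.05 the numbers were 2, 1 and 1. The share of all tested genes at that threshold was not counted and exceeds 14.1%, so these numbers are not read as a result. Proximal tubule markers, which include the phosphate transporter Slc34a1, moved most of the lists: 0 of 8 rose and 7 fell, with a median of -2.19, and their summed level was 38000 to 96000 CPM in Control and 14800 to 47500 CPM in cKO. Most of that sum was Kap, the 1 marker that did not pass (25600 to 91300 and 13500 to 46200 CPM, adjusted p = 0.096).

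Leukocyte markers rose for 4 of 7 (Adgre1, C1qa, C1qb and Cd68), with summed levels of 42.6 to 64.4 CPM in Control and 118 to 353 CPM in cKO. Fibroblast markers rose for 2 of 6 (Col3a1 and Dcn), with 121 to 190 and 290 to 426 CPM. Cd68 lost its call without Control 13 or 14 (adjusted p = 0.0573 and 0.0528), and Dcn without Control 13 (0.071). Without cKO 16 and cKO 20 these 6 genes stayed called, at smaller values: C1qa 1.26, C1qb 1.21, Cd68 1.02, Adgre1 1.43, Dcn 0.86 and Col3a1 1.3. Smooth muscle markers, whose cells also express Kcnma1, summed to 147 to 189 CPM in Control and 150 to 278 CPM in cKO. Of these 6, edgeR and DESeq2 called 0. At an unadjusted p under 0.05 there was 1, which is not read as a result, since the share of all genes there was not counted. Endothelial markers had 0 of 6 called by edgeR and 2 by DESeq2, and podocyte markers 0 of 5 by either. Of the adrenal markers, Cyp11b2 (aldosterone synthase) and Th had 0 reads in all 8 libraries. The list summed to 0.665 to 1.24 CPM in Control and 1.31 to 1.47 CPM in cKO, and 1 of its 2 tested genes, the ACTH receptor Mc2r, rose (2.14, adjusted p = 0.0218), on 11 Control and 56 cKO reads. Its call was lost without Control 10, 13 or 14 or cKO 20 (adjusted p 0.064 to 0.0728) and without both cKO 16 and cKO 20 (1.82, 0.076). Like Lrrc26, Mc2r met the filter on read counts through the cKO libraries alone. The share of tested adrenal genes that rose thus depended on that filter and is not read as a result. The part of these cell types in the values of the 8 genes and of the pathway lists was not tested.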

How the data were processed

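Poly(A) RNA of whole kidneys was sequenced from 8 mice, 1 library each. The deposited values are raw read counts per Ensembl gene, which the authors made, per the submitters' processing notes, with cutadapt 1.3, STAR 2.4.0g and HTSeq 0.6.1 on GRCm38. Its annotation release and strand setting were not given in the sources used here. Reads without a gene (39.7% to 56.2% of each file) were kept out of library sizes. Of 46517 identifiers 46005 matched GENCODE vM21. edgeR 4.0.16 (R 4.3.3) was run with TMM factors, filterByExpr (minimum count 10, total 15) and the quasi-likelihood F test, with Benjamini-Hochberg adjustment over 15382 genes at 0.05. The SE comes from the F statistic, and log2 CPM used a prior count of 2. The common biological coefficient of variation was 0.386, and replicates differed by more than sampling noise (chi-square per degree of freedom 7.48 to 476). Subunit ratios and levels relative to markers used exact permutation over 70 splits. Alternatives were other scalings, DESeq2 1.42.0, limma-voom (limma 3.58.1), other filters, a length covariate and left-out libraries. List counts under the covariate and the left-out libraries were added after seeing the data.

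The 8 genes, the lists and the alternatives were chosen with earlier results of these data known. Named in the text are the 8 genes, Xpr1, the 2 to 4 genes of each pathway list with the smallest p, and the 3 genes nearest in pattern to each of the 8. Marker lists are given mainly by their counts. The labels tell mice apart by number only, and all p-values reflect the spread between their 8 libraries, which may be partly technical.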

Additional observations from a re-analysis of the deposited data

How the results depend on the processing

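No paired analysis was possible because the groups share no replicate numbers. The Xpr1 difference kept its direction and passed under all 18 alternatives. The count of called genes, 2170 over 8 libraries, was 3267 with DESeq2, 5111 with the length covariate, 1106 to 2697 on leaving out 1 library, and 9175 without Control 11, cKO 16 and cKO 20. For the 8 genes it was 1 with DESeq2 (Kcnma1, -1.23) and with the length covariate (Kcnma1, -1.13), 6 without those 3 libraries, and 0 under the other 15. A mean of at least 1 CPM removed Kcnma1 from the test.

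Library totals alone, under which the median of all genes was 0.34, turned Scnn1g to 0.23, Nr3c2 to 0.21, Hsd11b2 to 0.16, Sgk1 to 0.14 and Nedd4l to 0.018. Upper-quartile factors (median 0.14) turned Scnn1g to 0.025, and no filter turned Scnn1b to -0.022. The length covariate gave Scnn1g 0.046, Nr3c2 0.017 and Hsd11b2 0.045. Leaving out 1 library gave -1.23 to 0.036 for Scnn1a, -0.11 to 0.35 for Scnn1b, -0.31 to 0.11 for Scnn1g, -0.37 to 0.041 for Nr3c2 and -0.44 to 0.14 for Hsd11b2. It gave -0.64 to -0.12 for Nedd4l, -0.52 to -0.021 for Sgk1 and -1.45 to -0.98 for Kcnma1.

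Without cKO 16 and cKO 20 the values were -0.023 for Scnn1a, 0.19 for Scnn1g, 0.17 for Nr3c2, 0.2 for Hsd11b2, 0.086 for Sgk1, 0.14 for Nedd4l and -0.8 for Kcnma1 (adjusted p = 0.165). The ratio of Scnn1a to Scnn1b became 0.058 and that of Scnn1b to Scnn1g -0.018. Relative to principal cell markers, Sgk1 was then at 0.19, Nedd4l at 0.27 and Kcnma1 at -0.62.

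Without Control 11, cKO 16 and cKO 20 the values were 0.7 for Scnn1a, 0.42 for Scnn1b, 0.37 for Scnn1g, 0.32 for Nr3c2, 0.5 for Hsd11b2, 0.35 for Nedd4l and -1 for Kcnma1. The difference in log2 ratio was 0.28 for Scnn1a to Scnn1b and 0.34 for Scnn1a to Scnn1g. Relative to principal cell markers the values were 0.89 for Scnn1a, 0.6 for Scnn1b, 0.55 for Scnn1g, 0.49 for Nr3c2, 0.68 for Hsd11b2 and 0.54 for Nedd4l. Among marker genes, Atp6v1g3 (-0.093), Kng2 (-0.11), Tagln (-0.11) and Nphs1 (0.52) changed sign there, and Nphs1 was at 0.16 without Control 11. For Scnn1a, Scnn1g, Nr3c2, Hsd11b2 and Nedd4l, leaving out their highest Control kidney and lowest cKO kidneys raised the value by construction. Beyond that, the cause of these changes was not tested.

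Beside 57.8% of all genes called in those 5 libraries, the calls were 6 of 10 proteases and inhibitors, 9 of 16 kinases and ligases, 7 of 13 steroid partners, 9 of 16 corticosteroid-induced transcripts and 3 of 8 potassium channels. With the length covariate (33.2% of all genes) they were 6, 4, 4, 7 and 2. Without cKO 16 and cKO 20, in a fit that called 2645 genes, they were 2, 0, 2, 4 and 2. Depth was lowest for Kcnma1, with 5 to 41 reads per library.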
